A study of Homo sapiens with 20 samples.

Results

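The genes described here are 10 genes of the melanocyte lineage and of pigment production: the transcription factors MITF, SOX10 and PAX3, the pigment enzymes TYR, TYRP1 and DCT, the melanosome proteins PMEL and MLANA, the channel TRPM1 and the receptor MC1R. They were taken by name from an RNA-seq table of 58870 genes, in which each had 1 row, together with the 43 of 54563 consensus Cut&Run peaks that overlapped one of them or lay within 50 kb of it. The samples came from A375 and 1205Lu, both established human melanoma cell lines. For RNA-seq the cells received either non-targeting siRNAs (si-NT) or siRNAs directed at FRA1 (si-FOSL1), an AP-1 transcription factor encoded by FOSL1. The labels of the Cut&Run samples name no siRNA. RNA-seq covered 3 samples in each of these 4 groups, and Cut&Run, in which an antibody directs a nuclease to cut DNA around a bound protein, covered 3 FRA1 samples and 1 IgG control in each line. No allele or further agent is named for any group, the time between transfection and harvest and the number of siRNAs are not given in the sources used here, and the labels do not say that samples of a group came from separate cultures. The study's methods state in general that experiments were done at least 3 times, each with technical replicates, without tying this to the sequenced samples. P-values therefore measure the spread between these samples, which may be technical. The comparisons ask whether lowering FRA1 changed the lineage genes, and whether FRA1 was recorded at them.

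Melanocytes descend from the neural crest. SOX10 and PAX3 act together on MITF, the regulator that turns on the genes of melanin synthesis, and MC1R raises MITF through cyclic AMP. In melanoma, cells with high MITF and pigment genes are called differentiated, and AP-1 factors such as FRA1 are commonly described in cells with low MITF.

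FOSL1 itself checked the labels. Its level was 413, 424 and 408 CPM (counts scaled to a common library size, on library sizes normalized over the 12 samples) in A375 si-NT and 25.7, 25.7 and 26 CPM in A375 si-FOSL1, and in 1205Lu it was 492, 484 and 478 CPM against 69.4, 70.9 and 65.1 CPM. The log2 fold change was -4.01 (SE 0.03) in A375 and -2.84 (SE 0.0291) in 1205Lu, with adjusted p = 6.0e-30 and 1.0e-22 (edgeR quasi-likelihood test with Benjamini-Hochberg adjustment, used for every adjusted p here unless another tool is named). RNA-seq totals lay between 20573412 and 32518903 counts per sample. The defining melanocyte markers were only in part present. The melanosome and enzyme markers PMEL, MLANA and TYR averaged under 1 CPM in A375 si-NT and in both 1205Lu groups, and S100B, a calcium-binding protein of neural crest cells, averaged 427 CPM in 1205Lu si-NT and 0.992 CPM in A375 si-NT. Of the markers of other cell types, the summed levels of 5 fibroblast genes were 13.2 to 13.9 CPM in A375 si-NT and 33.1 to 35.2 CPM in A375 si-FOSL1, mostly COL1A1 and COL3A1, and those of 4 leukocyte genes were 77.7 to 79.7 CPM and 56.1 to 60.2 CPM, nearly all CD68. In 1205Lu the fibroblast sums were 2.96 to 4.81 and 3.31 to 3.84 CPM, and the leukocyte sums 17.2 to 18.3 and 7.14 to 8.51 CPM. The 3 endothelial genes summed to at most 2.73 CPM in any sample, and the 4 keratinocyte genes to 34.8 to 45.8 CPM, nearly all KRT10, which averaged 36.1 to 44.9 CPM by group, while KRT1, KRT5 and KRT14 averaged under 1 CPM in every group. Their part in the results below was not tested. In bulk samples, fewer cells that express a gene and less RNA per cell cannot be told apart.

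The lines carried different lineage regulators. Per kilobase of exon, the order in A375 si-NT was SOX10 (9.11 ± 0.09 CPM per kb, SD, n = 3), MITF (7.03 ± 0.319), PAX3 (2.15 ± 0.0684) and MC1R (1.55 ± 0.0193), followed by TYRP1 (0.245 ± 0.0396) and PMEL (0.133 ± 0.0216), and no neighbours in that order overlapped in their samples. Below them, the ranges of DCT, TYR, MLANA and TRPM1 overlapped from each to the next, at 0.0443 to 0.019 CPM per kb. In 1205Lu si-NT the order was SOX10 (189 ± 3.23 CPM per kb), PAX3 (5.55 ± 0.299), MC1R (2.49 ± 0.135), MITF (0.479 ± 0.0314), PMEL (0.19 ± 0.0682) and MLANA (0.108 ± 0.0174), again without overlap, and then DCT, TYR, TRPM1 and TYRP1, whose ranges overlapped. On this scale SOX10 stood above 99.6% of protein-coding genes in 1205Lu and above 81.0% in A375, and MITF above 43.2% in 1205Lu and 76.4% in A375.

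**Figure D1:**
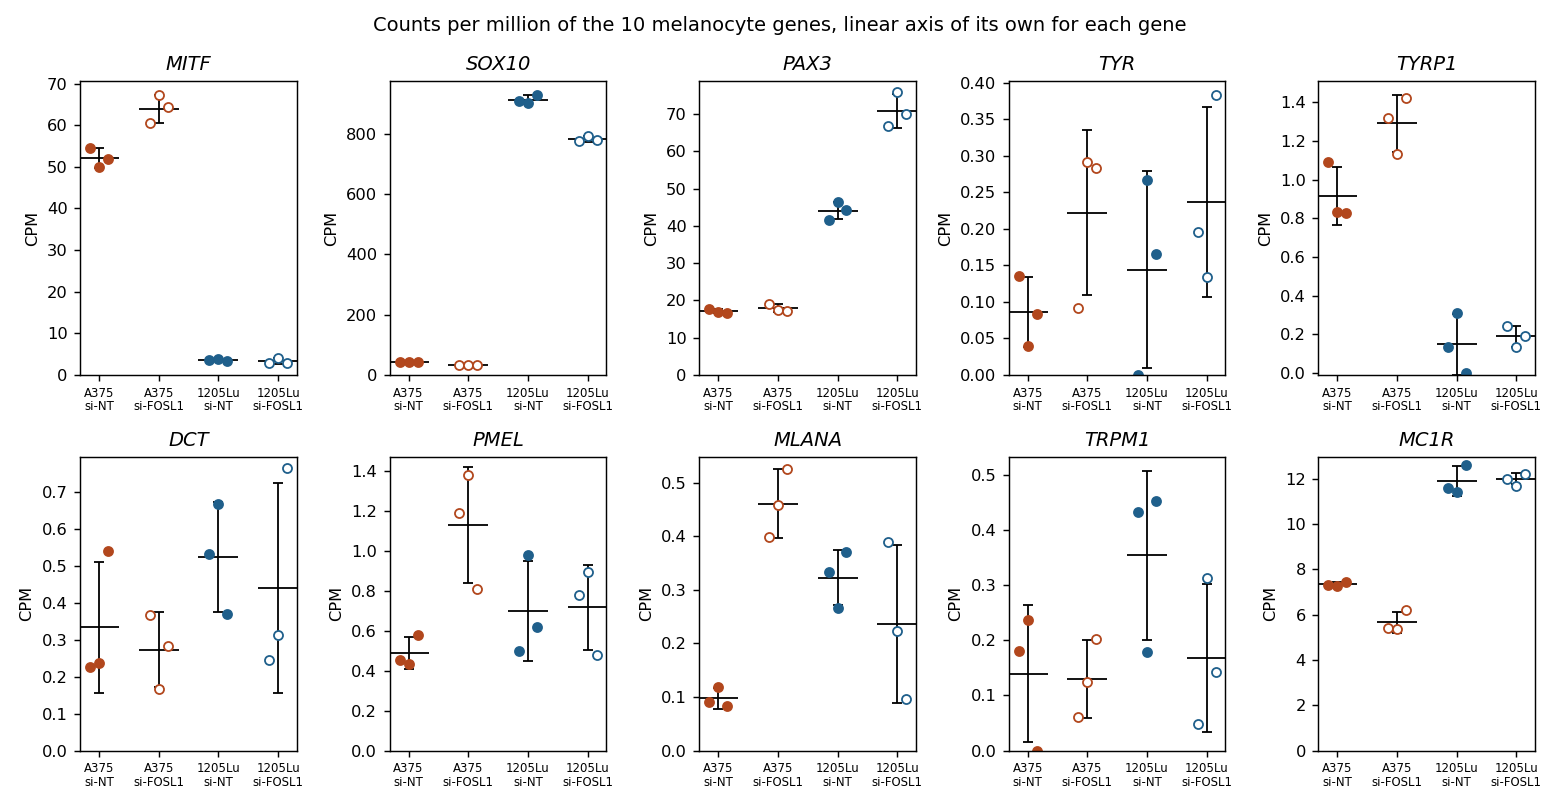
CPM of each gene in each RNA-seq sample (circles; filled for si-NT, open for si-FOSL1), with the mean and SD of each group of 3 as a bar, each gene on its own linear axis. MITF stands at 49.9 to 67.2 CPM in A375 and at 2.77 to 4.06 CPM in 1205Lu, whereas SOX10 and PAX3 stand higher in 1205Lu, and 6 of the genes lie below 1.5 CPM in every sample.

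MITF (ENSG00000187098, chr3:69739456-69968336 of GRCh38, plus strand) was counted at 1208, 1262 and 1254 reads in A375 si-NT and at 109, 84 and 80 in 1205Lu si-NT, that is 54.6, 49.9 and 52.0 CPM against 3.63, 3.74 and 3.29 CPM. Every A375 sample exceeded every 1205Lu sample, and the log2 ratio of A375 to 1205Lu was 3.80 (SE 0.0801, adjusted p = 2.9e-19). SOX10 (ENSG00000100146, chr22:37970686-37987422, minus strand) ran the other way, with 43.5, 44.3 and 44.1 CPM in A375 si-NT and 908, 902 and 931 CPM in 1205Lu si-NT. Its log2 ratio was -4.45 (SE 0.024, adjusted p = 2.3e-28). PAX3 (ENSG00000135903, chr2:222199887-222298998, minus strand), which acts upstream of MITF in the neural crest, was also lower in A375, at 17.7, 16.9 and 16.7 CPM against 41.7, 46.4 and 44.2 CPM (log2 ratio -1.44, SE 0.0617, adjusted p = 3.2e-14). MC1R, the receptor of melanocyte-stimulating hormone, had 7.33, 7.28 and 7.46 CPM in A375 and 11.6, 11.4 and 12.6 CPM in 1205Lu (log2 ratio -0.76, SE 0.109, adjusted p = 3.3e-06). TYRP1 was higher in A375 (log2 ratio 2.55, SE 0.624, adjusted p = 0.0011), although on 24, 21 and 20 reads against 4, 7 and 0. Of the 7 genes that passed the filter on low counts, 2 were higher and 3 lower in A375, and DCT and PMEL did not pass the test. Over all protein-coding genes tested, 42.4% were higher and 40.4% lower in A375, and 38.6% passed with an absolute log2 ratio over 1, as 4 of these genes did.

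FRA1 silencing moved the regulators by less than 2-fold, and not alike in the 2 lines. Of the 6 genes tested in A375, MITF and PMEL rose and SOX10 and MC1R fell with si-FOSL1. Among all protein-coding genes tested there, 29.9% rose and 27.8% fell, so that these counts are read against a background in which most genes moved. Of the 6 genes tested in 1205Lu, PAX3 rose and SOX10 fell, against a background of 24.0% and 23.0%. With a limit of 1 on the absolute log2 fold change, 1 of the genes passed in A375 (background 5.29%) and 0 in 1205Lu (2.97%). At that fold limit 0 genes passed in 1205Lu at an unadjusted p of 0.05 in edgeR, and 0 in DESeq2.

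SOX10 was the 1 gene that fell in both lines. In A375 it went from 43.5, 44.3 and 44.1 CPM to 32.0, 32.0 and 33.5 CPM, and in 1205Lu from 908, 902 and 931 CPM to 777, 794 and 780 CPM. The groups did not overlap in either line. The log2 fold change was -0.44 (SE 0.0506, adjusted p = 8.9e-08) in A375 and -0.24 (SE 0.016, adjusted p = 2.2e-10) in 1205Lu, leaving 73.6% and 84.8% of the si-NT level. The fall was larger in A375, with a difference of the log2 fold changes of -0.22 (SE 0.0359, adjusted p = 3.2e-05). SOX10 shares 5.39% of its exon bases with POLR2F on the opposite strand, and whether the counting used strand is not given in the sources used here.

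MITF rose in A375 from 54.6, 49.9 and 52.0 CPM to 60.5, 67.2 and 64.4 CPM, without overlap of the groups. The log2 fold change was 0.29 (SE 0.0484, adjusted p = 2.2e-05), or 122% of the si-NT level. In 1205Lu it stood at 2.97, 4.06 and 2.77 CPM with si-FOSL1, inside and around the si-NT range of 3.29 to 3.74 CPM, with a log2 fold change of -0.13 (95% interval -0.51 to 0.24, adjusted p = 0.63). The difference between the lines was 0.41 (SE 0.154, adjusted p = 0.046). Leaving out any of 8 of the 12 samples ended that call, with adjusted p between 0.071 and 0.2: A375 si-NT 2 and 3, A375 si-FOSL1 2 and 3, 1205Lu si-NT 1 and 2, and 1205Lu si-FOSL1 1 and 3.

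PAX3 rose in 1205Lu from 41.7, 46.4 and 44.2 CPM to 66.9, 75.9 and 69.9 CPM (log2 fold change 0.67, SE 0.0515, adjusted p = 1.6e-09). In A375 the si-NT samples, at 17.7, 16.9 and 16.7 CPM, overlapped those with si-FOSL1, at 19.1, 17.4 and 17.2 CPM (log2 fold change 0.06, 95% interval -0.09 to 0.22, adjusted p = 0.53). The difference between the lines was -0.62 (SE 0.0899, adjusted p = 5.2e-06). Thus 4 of the 7 genes tested, MITF, SOX10, PAX3 and MC1R, passed the interaction test, as did 38.7% of all protein-coding genes tested.

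**Figure D2:**
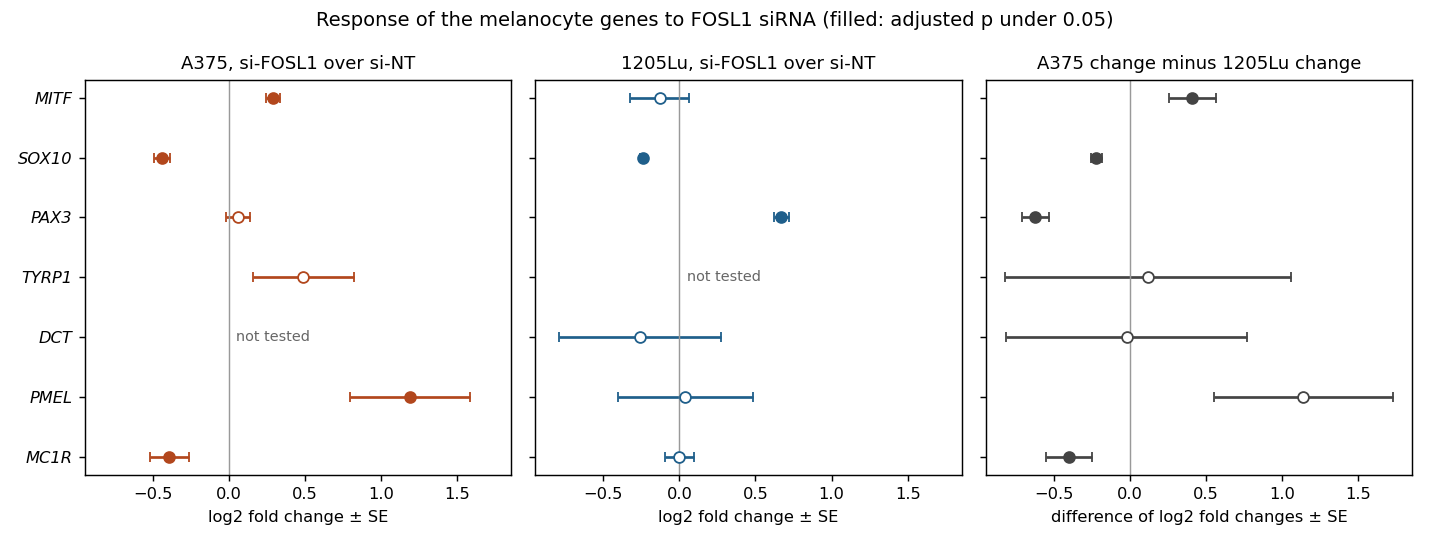
Log2 fold change of each tested gene with si-FOSL1 in A375 and in 1205Lu, and the difference between both, with the standard error; filled circles passed an adjusted p of 0.05. SOX10 lies at -0.44 and -0.24, MITF at 0.29 and -0.13, and PAX3 at 0.06 and 0.67, and the bars of PMEL, TYRP1 and DCT are the widest and rest on few reads.

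MC1R (ENSG00000258839, chr16:89912119-89920973, plus strand) had 7.33, 7.28 and 7.46 CPM in A375 si-NT and 5.39, 5.38 and 6.19 CPM in A375 si-FOSL1, without overlap (log2 fold change -0.39, SE 0.127, adjusted p = 0.014). In 1205Lu the samples were 11.6, 11.4 and 12.6 against 12, 11.7 and 12.2 CPM (0.00, 95% interval -0.19 to 0.19). MC1R shares 25% of its exon bases on the same strand with AC092143.1, a readthrough gene, and 11.5% with TCF25, so its counts are uncertain. AC092143.1 had 0, 11 and 0 reads in A375 si-NT and 33, 27 and 12 in A375 si-FOSL1. With the reads of both rows added, an alternative chosen after the data were seen, the log2 fold change in A375 was -0.21 and did not pass (adjusted p = 0.16). The difference between the lines, -0.40 (SE 0.154, adjusted p = 0.049), was then -0.23 (adjusted p = 0.25).

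The pigment genes themselves were close to the limit of detection. The 6 genes TYR, TYRP1, DCT, PMEL, MLANA and TRPM1 together had 48 to 51 reads per sample in A375 si-NT, 85 to 112 in A375 si-FOSL1, 48 to 60 in 1205Lu si-NT and 39 to 45 in 1205Lu si-FOSL1. Their summed level was 1.9 to 2.17 CPM in A375 si-NT and 3.43 to 3.55 CPM in A375 si-FOSL1, and 1.93 to 2.67 CPM against 1.9 to 2.06 CPM in 1205Lu.

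PMEL (ENSG00000185664, chr12:55954105-55973317, minus strand), which forms the fibrils on which melanin is laid down, had 10, 11 and 14 reads in A375 si-NT and 39, 33 and 20 in A375 si-FOSL1, at 0.452, 0.435 and 0.58 CPM against 1.19, 1.38 and 0.81 CPM. It rose with a log2 fold change of 1.19 (SE 0.395, adjusted p = 0.014), a call that ended without A375 si-NT 1 or 2 or without A375 si-FOSL1 1 or 2 (adjusted p 0.052 to 0.072). In 1205Lu its 15, 22 and 15 reads stood against 16, 20 and 10 (log2 fold change 0.04, 95% interval -0.83 to 0.91). The difference between the lines was 1.14 and did not pass (adjusted p = 0.16).

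MLANA (ENSG00000120215, chr9:5890889-5910606, plus strand), a melanosome protein used as a melanoma marker, had 2, 3 and 2 reads in A375 si-NT and 13, 11 and 13 in A375 si-FOSL1. The groups did not overlap, but so few reads did not pass the filter on low counts. Without the filter the log2 fold change was 2.20 (SE 0.774, adjusted p = 0.024). In 1205Lu the reads were 10, 6 and 9 against 8, 5 and 2.

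TYRP1 (ENSG00000107165, chr9:12685439-12710285, plus strand), which oxidizes an intermediate of eumelanin, had 24, 21 and 20 reads in A375 si-NT and 43, 27 and 35 in A375 si-FOSL1, or 1.09, 0.831 and 0.829 CPM against 1.32, 1.13 and 1.42 CPM. The groups did not overlap, yet the log2 fold change of 0.49 (SE 0.332) did not pass (adjusted p = 0.23). TYR (ENSG00000077498, chr11:89177875-89295759, plus strand), the rate-limiting enzyme of melanin synthesis, had at most 8 reads in any of the 12 samples, and 0 in 1205Lu si-NT 1. DCT (ENSG00000080166, chr13:94436811-94479682, minus strand), the tautomerase of the pathway, had 4 to 16 reads per sample, with a log2 fold change of -0.26 in 1205Lu (95% interval -1.31 to 0.78). TRPM1 (ENSG00000134160, chr15:31001065-31161160, minus strand), a cation channel, had 0 to 13 reads. Differences in TYR, DCT and TRPM1 were not detectable at this depth.

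The promoters of the pigment enzymes carry the site through which MITF is known to act, the M-box. They are printed here because these genes stayed near 0 in A375, where MITF stood at 52.2 ± 2.37 CPM (SD, n = 3) with si-NT. That level was counted over the whole gene and does not separate the transcripts of MITF. RefSeq promoters (GRCh38.p14, 250 bases before a start to 50 after it) matched 8 of the 10 genes by symbol, with 12 promoters, and SOX10 and PMEL had no entry. TCATGTG, searched on both strands, was found in promoters of TYR, TYRP1 and DCT, and in 2.92% of 35116 promoters of all genes. Each stretch below runs 5′ to 3′ on the strand of its gene, with the match in capitals (CACATGA where it lies on the opposite strand), and lies before the start.
TYR promoter, chr11:89177744-89177802, plus strand: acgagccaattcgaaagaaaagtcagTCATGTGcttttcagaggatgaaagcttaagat
TYRP1 promoter, chr9:12693214-12693272, plus strand: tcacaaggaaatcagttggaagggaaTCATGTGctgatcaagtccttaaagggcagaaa
DCT promoter, chr13:94479785-94479843, minus strand: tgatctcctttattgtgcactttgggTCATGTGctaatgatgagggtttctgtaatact
DCT promoter, chr13:94479865-94479923, minus strand: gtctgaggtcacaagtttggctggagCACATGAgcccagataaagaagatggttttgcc
In TYR, TYRP1 and both DCT stretches the match began 105, 145, 135 and 215 bases before the start. The related E-box TCACGTG was in none of the 12 promoters and in 3.71% of all, and the AP-1 sequence TGAGTCA was in none of the 12 and in 4.95% of all. A match is a description of letters and does not show that a factor was bound.

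Other genes of melanosomes and of the lineage moved in both directions. The melanosome list held 26 genes of melanosome assembly and transport. In A375, 7 of its 22 tested genes rose and 6 fell, near the background of 29.9% and 27.8%, with a median log2 fold change of 0.01, as over all protein-coding genes tested. GPNMB, a transmembrane glycoprotein related to PMEL, rose from 62.6, 60.3 and 62.0 CPM to 98.3, 98.9 and 96.3 CPM (log2 fold change 0.66, adjusted p = 2.1e-13). HPS5, part of a complex that delivers cargo to melanosomes, fell from 22.4, 27.9 and 24.9 CPM to 17.9, 16.5 and 16.3 CPM (-0.57, adjusted p = 2.1e-06). MLPH, which links RAB27A to a myosin motor, fell from 12.3, 12.2 and 13.2 CPM to 10.4, 8.1 and 8.62 CPM (-0.47, adjusted p = 6.8e-04).

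In 1205Lu, 2 of the 21 tested melanosome genes rose and 9 fell, against a background of 24.0% and 23.0%, with a median of -0.15 against 0.00 over all protein-coding genes tested. HPS5 fell from 115, 123 and 120 CPM to 65.0, 65.7 and 60.5 CPM (-0.92, adjusted p = 3.1e-13). MYO5A, the myosin that carries melanosomes, fell from 277, 284 and 278 CPM to 195, 195 and 197 CPM (-0.53, adjusted p = 2.4e-13), while in A375 its log2 fold change was 0.03 (adjusted p = 0.6). RAB32, a small GTPase of melanosome cargo transport, rose from 12.5, 12.5 and 13.5 CPM to 17.4, 19.3 and 19.7 CPM (0.53, adjusted p = 2.8e-05).

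The list of lineage signals and regulators, with 22 genes, had the higher medians: 0.39 in A375 (8 of 17 tested genes rose and 5 fell) and 0.36 in 1205Lu (11 of 18 rose and 3 fell). Over all protein-coding genes tested, the medians were 0.01 and 0.00, 29.9% rose and 27.8% fell in A375, and 24.0% rose and 23.0% fell in 1205Lu. In A375, KITLG, the ligand of KIT, rose from 10.7, 10.1 and 9.03 CPM to 24.1, 22.2 and 23.6 CPM (1.23, adjusted p = 1.3e-11). EDNRB, the endothelin receptor of melanoblasts, rose from 3.62, 4.15 and 4.76 CPM to 8.7, 7.89 and 9.55 CPM (1.05, adjusted p = 7.7e-07), and by 1.07 in 1205Lu (adjusted p = 3.8e-05). SOX5, a transcription factor of the SOX family, rose from 25.1, 28 and 24.8 CPM to 54.4, 52.2 and 52.8 CPM (1.03, adjusted p = 1.3e-13). In 1205Lu, NGFR, a neural crest receptor, rose from 3.19, 2.67 and 3.5 CPM to 14.7, 13.0 and 13.2 CPM (2.1, adjusted p = 1.5e-10), whereas in A375 it fell, with a log2 fold change of -0.46 (adjusted p = 0.0076). S100A1, a calcium-binding protein, fell in 1205Lu from 192, 180 and 192 CPM to 71.4, 71.9 and 73.7 CPM (-1.40, adjusted p = 4.4e-17). In A375 it rose by 1.11 (SE 0.27, adjusted p = 0.0014), but from a far lower level, with a log2 ratio of A375 to 1205Lu of -7.36 with si-NT. SNAI2, a neural crest transcription factor, rose in 1205Lu from 209, 207 and 204 CPM to 315, 318 and 312 CPM (0.59, adjusted p = 4.5e-14).

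Of 20 genes reported as MITF targets outside pigmentation, 5 of the 16 tested in A375 rose and 6 fell, with a median of -0.07, and 7 of the 17 tested in 1205Lu rose and 5 fell, with a median of 0.00. The same backgrounds apply, 29.9% and 27.8% in A375 and 24.0% and 23.0% in 1205Lu. ACP5, an acid phosphatase, rose in A375 from 3.08, 3.36 and 3.85 CPM to 7.56, 8.31 and 7.73 CPM (1.19, adjusted p = 1.7e-07). DIAPH1, an actin nucleator, fell in A375 from 247, 241 and 248 CPM to 145, 139 and 145 CPM (-0.79, adjusted p = 2.1e-17) and in 1205Lu from 131, 123 and 124 CPM to 78.2, 80.7 and 78.4 CPM (-0.68, adjusted p = 4.6e-12). CDK2, a cell cycle kinase that shares 2.42% of the exon bases of PMEL on the opposite strand, fell by 0.86 on the log2 scale in A375 (adjusted p = 1.1e-12) and by 0.60 in 1205Lu (adjusted p = 2.8e-06). ST3GAL6, a sialyltransferase, rose in 1205Lu from 14.7, 12.7 and 13.0 CPM to 22.7, 20.5 and 19.6 CPM (0.61, adjusted p = 8.6e-06).

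**Figure D3:**
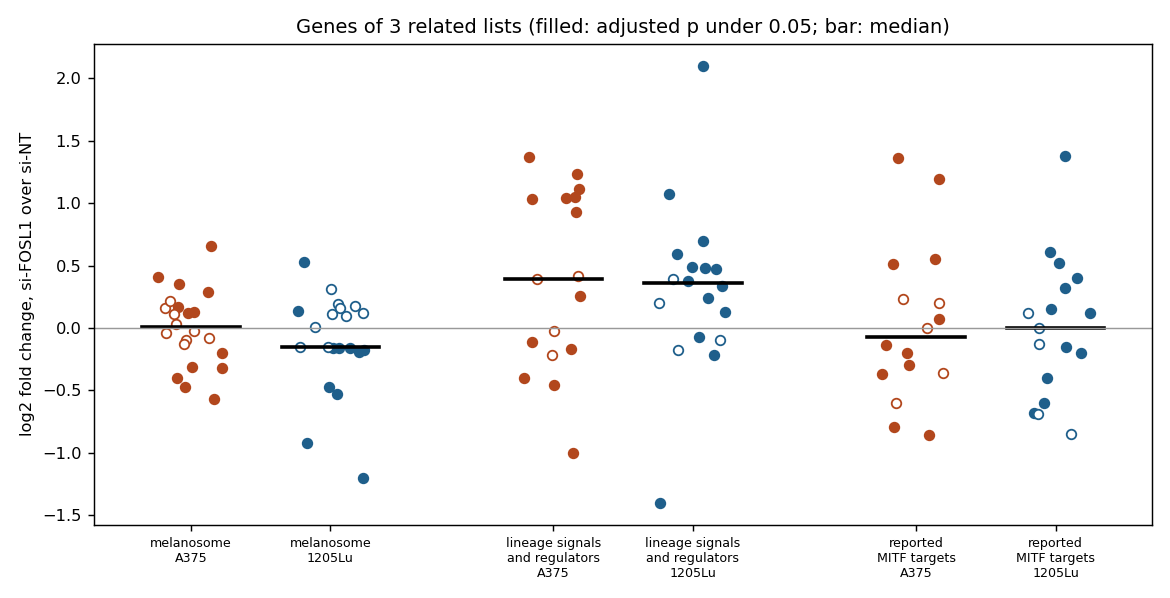
Log2 fold change with si-FOSL1 of each tested gene of the 3 related lists in A375 (red) and 1205Lu (blue); filled circles passed an adjusted p of 0.05 and bars are medians. The medians of the lineage signals and regulators are 0.39 and 0.36, those of the melanosome genes 0.01 and -0.15, and those of the reported MITF targets -0.07 and 0.00.

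Across the 12 RNA-seq samples, the protein-coding genes whose log2 CPM followed MITF most closely were ALPP (Pearson r = 0.9991), PNMA8A, SLC25A24, BASP1 and IL1B (0.9986), of 14844 genes tested. Those closest to SOX10 were PHLDA2 (0.9997), SCARF2, CAPRIN2, PFKFB3 and SVIL (0.9993). The 12 points share their line and fall into 2 clusters, A375 and 1205Lu, so these values describe a gap between the lines: BASP1 averaged 172 CPM in A375 si-NT and 0.473 CPM in 1205Lu si-NT, and CAPRIN2 39.2 and 513 CPM.

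In the Cut&Run samples, with depth left unscaled, FRA1 was counted well above IgG along MITF in A375 and at the level of IgG in 1205Lu. A peak was taken as enriched where every FRA1 sample of the line reached 10 counts and also 4 times the IgG count with 1 added to it, with depth left unscaled. By that rule 28 of the 43 peaks near these genes were enriched in A375 and 2 in 1205Lu, namely promoter peaks of PAX3 and PMEL. Of all consensus peaks, 57.4% were enriched in A375 and 7.09% in 1205Lu. The depth differed: the FRA1 samples held 3354095 to 5316527 counts in peaks in A375 and 583750 to 897407 in 1205Lu, with 383994 and 314569 in the IgG samples. Every A375 FRA1 sample thus held over 4 times the total of its IgG sample, and no 1205Lu FRA1 sample did. The rule is therefore easier to meet in A375, and the numbers of enriched peaks do not compare the lines at equal depth. In 1205Lu, the counts of FRA1 samples 2 and 3 agreed within sampling noise (a chi-square of 1.012 for each degree of freedom, p = 0.19), so they may be 1 library counted again, and they were taken as 1 sample in comparisons of the lines. The other pairs of FRA1 samples differed beyond it, at 1.486 and 1.644 in 1205Lu and 1.066 to 1.248 in A375.

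Of the 12 peaks at MITF, 8 lay inside the gene, and by this unscaled rule all 8 were enriched in A375, with a ninth downstream. No MITF peak was enriched in 1205Lu. The tallest, in an intron at chr3:69769743-69771832, had 364, 617 and 462 counts in the A375 FRA1 samples and 30 with IgG, against 4, 10 and 10 and 11 with IgG in 1205Lu. The peak at chr3:69761804-69763029, which contains a GENCODE start of MITF and lies 0.8 kb before a RefSeq start, had 249, 424 and 333 counts with 14 in IgG in A375, against 5, 2 and 4 with 6 in IgG in 1205Lu. The peak at chr3:69867153-69868062, 0.9 kb from the start of another transcript, had 71, 100 and 66 counts (IgG 2) against 2, 5 and 2 (IgG 2). After normalization for depth, the log2 ratio of A375 to 1205Lu was 3.20 (SE 0.293, adjusted p = 1.4e-09), 3.78 (SE 0.332, adjusted p = 7.3e-10) and 2.00 (SE 0.412, adjusted p = 2.2e-04) at these 3 peaks. At MITF, 7 of 12 peaks were higher in A375 and 1 in 1205Lu, 32.3 kb downstream of the gene. By number of enriched peaks in A375, MITF stood above 97.2% of 19875 protein-coding genes, and its span of 228881 bases is longer than that of 93.8% of them, which widens the window. The melanocyte-specific form of MITF begins at the most downstream of its 3 RefSeq starts, position 69936592, and the nearest consensus peak lay 45.7 kb from it.

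**Figure D4:**
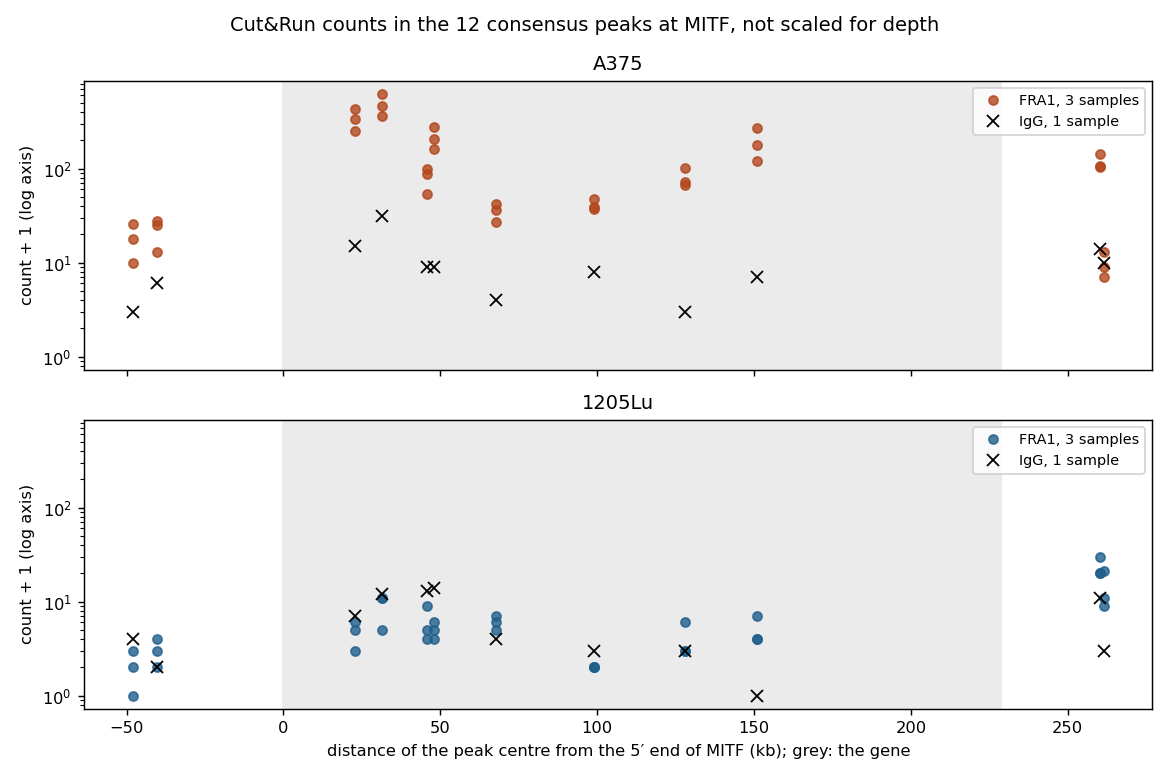
Counts plus 1, on a log axis and not scaled for depth, in each FRA1 sample (circles) and the IgG sample (crosses) at the 12 peaks around MITF, by distance of the peak centre from the 5′ end of the gene (grey span). In A375 the 8 peaks inside the gene lie above IgG in all 3 samples, up to 617 counts against 30, whereas in 1205Lu FRA1 counts inside the gene reach at most 10 and overlap those of IgG.

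Peaks enriched in A375 held the AP-1 sequence TGAGTCA at 7 of the genes, MITF, SOX10, MLANA, TRPM1, PMEL, TYRP1 and MC1R. To show what such peaks held, 1 stretch of GRCh38 is printed for each of the first 5, and a further one for MITF. The sequence was searched on both strands, stretches run 5′ to 3′ on the plus strand outside annotated exons, and the match is in capitals (TGACTCA on the opposite strand).
MITF intron, chr3:69787605-69787663, plus strand: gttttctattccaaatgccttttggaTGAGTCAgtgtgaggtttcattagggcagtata
MITF intron, chr3:69890241-69890299, plus strand: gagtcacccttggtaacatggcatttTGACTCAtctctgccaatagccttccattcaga
SOX10 upstream, chr22:38000068-38000126, plus strand: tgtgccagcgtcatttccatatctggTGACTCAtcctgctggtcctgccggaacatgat
MLANA upstream, chr9:5879715-5879773, plus strand: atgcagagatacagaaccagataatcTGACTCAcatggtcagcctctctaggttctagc
TRPM1 intron, chr15:31024404-31024462, plus strand: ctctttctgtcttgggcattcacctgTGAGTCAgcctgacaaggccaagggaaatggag
PMEL upstream, chr12:55973713-55973771, plus strand: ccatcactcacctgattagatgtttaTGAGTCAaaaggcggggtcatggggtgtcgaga
TGAGTCA lay within 100 bases of the centre in 12 of the 43 peaks (27.9%) and in 29.2% of all consensus peaks, so the share near these genes was close to that of the whole set. The match in the first MITF stretch lay 25 bases from the centre of its peak, which had 160, 278 and 206 counts in A375 (IgG 8). Those in the second MITF stretch and the PMEL stretch lay beyond 100 bases, at -155 and -101 bases from the centres of their peaks. The tallest MITF peak and the peak at the MITF start held no match.

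SOX10 had 7 peaks within 50 kb and 0 inside the gene. The tallest in A375, 12 kb upstream at chr22:37999468-38000631, had 121, 200 and 160 counts in A375 (IgG 9) and 15, 16 and 6 in 1205Lu (IgG 14), with a log2 ratio of 0.97 (SE 0.253, adjusted p = 0.0023). DESeq2 did not call it (adjusted p = 0.068). The tallest in 1205Lu, 43.5 kb upstream at chr22:38030881-38032097, had 51, 84 and 74 counts there (IgG 12), and its lowest sample fell just short of the limit over IgG. It had 58, 63 and 55 counts in A375 (IgG 6), with a log2 ratio of -2.92 (SE 0.202, adjusted p = 1.1e-11), and -0.15 without scaling (adjusted p = 0.71). Of the 7 peaks, 4 were enriched in A375 and 0 in 1205Lu. After normalization 4 were higher in 1205Lu and 1 in A375, but without scaling for depth 1 of those 4 had turned (0.67) and 1 still passed. The nearest protein-coding start was that of SOX10 at 2 of the 7 peaks, of POLR2F at 4 and of MICALL1 at 1.

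PAX3 and PMEL held the peaks enriched in both lines. The PAX3 peak, at chr2:222290579-222291492 inside the gene and 7.5 kb from its RefSeq start, had 55, 81 and 68 counts in A375 (IgG 7) and 39, 77 and 62 in 1205Lu (IgG 4). Its normalized log2 ratio was -2.47 (SE 0.2, adjusted p = 1.7e-10), higher in 1205Lu, while without scaling it was 0.32 (adjusted p = 0.43). The PMEL peak, at chr12:55973191-55974495, contains the most upstream annotated start of PMEL and starts of RAB5B, and had 400, 551 and 471 counts in A375 (IgG 32) and 76, 182 and 139 in 1205Lu (IgG 11). Its log2 ratio was -0.75 (SE 0.215, adjusted p = 0.0047), and 2.00 without scaling. A second PMEL promoter peak, at chr12:55966670-55967182, contains starts of PMEL and CDK2, was enriched in neither line and had 17, 29 and 22 counts in A375 (IgG 7). The last, at chr12:55956028-55956629, was enriched in A375 with 39, 49 and 46 counts (IgG 8).

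The remaining pigment genes had few peaks near their own starts. No consensus peak lay within 50 kb of TYR, and 1 lay near DCT, 17.0 kb downstream, with 21, 23 and 19 counts in A375 (IgG 2). TYRP1 had 83, 123 and 86 counts in A375 (IgG 15) at chr9:12680600-12682172, and 10, 1 and 4 in 1205Lu (IgG 7). That peak lay 3.3 kb upstream of the most upstream GENCODE start of TYRP1 and 11.2 kb from its RefSeq start. A promoter peak of a short TYRP1 transcript, at chr9:12708339-12709132, had 33, 48 and 45 counts (IgG 10) and was not enriched. The tallest peak near MLANA, at chr9:5879389-5880153 and 10.7 kb upstream, contains a start of ERMP1 and had 129, 187 and 134 counts in A375 (IgG 2) against 3, 1 and 4 in 1205Lu (IgG 4; log2 ratio 3.09, SE 0.374, adjusted p = 1.5e-07). TRPM1 had its tallest peak in an intron at chr15:31023763-31025145, with 195, 312 and 245 counts (IgG 14) against 4, 7 and 4 (IgG 9; log2 ratio 2.93, SE 0.301, adjusted p = 1.0e-08). Of its promoter peaks, chr15:31104631-31105436 was enriched in A375 with 42, 57 and 39 counts (IgG 7), and chr15:31099571-31099954, with 14, 21 and 19 counts (IgG 5), was not. The MC1R peak counted as a promoter peak, at chr16:89920953-89923896, overlaps the 3′ end of that gene, at position 89920973. It begins 2.1 kb downstream of the RefSeq start of MC1R and contains a start of TUBB3. Its counts were 249, 379 and 312 in A375 (IgG 31) and 56, 87 and 69 in 1205Lu (IgG 42; log2 ratio -0.53, SE 0.188, adjusted p = 0.019, and 2.22 without scaling).

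**Figure D5:**
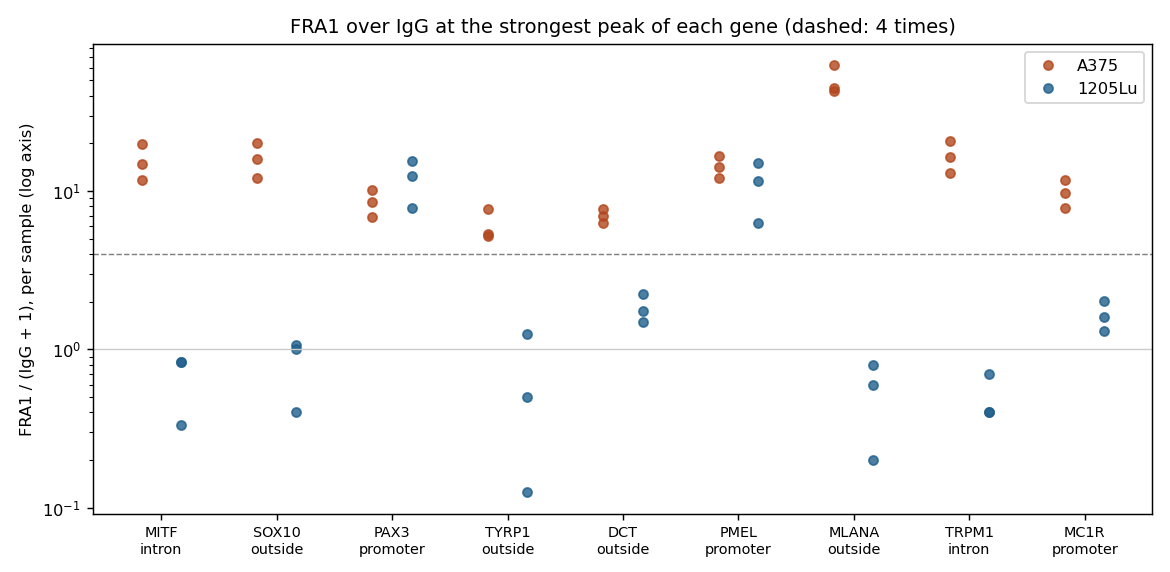
FRA1 count of each sample divided by the IgG count plus 1 of its line, not scaled for depth and on a log axis. The peak shown is that with the highest mean FRA1 count near each gene, which was an A375 mean for each of them. TYR has no peak within 50 kb, and the dashed line marks 4 times. All A375 samples lie above the line at each of the 9 peaks, and the 1205Lu samples lie above it at PAX3 and PMEL.

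Over the 42 peaks tested near these genes, 15 were higher in A375 and 10 in 1205Lu (29.0% and 24.3% of all peaks tested). Leaving out 1205Lu samples 2 and 3, there were 9 and 6. Without scaling for depth, 36 were higher in A375 and 1 in 1205Lu, and of the 10 peaks higher in 1205Lu after normalization, 6 turned in sign and 1 was still called. The share of calls higher in A375 was thus 60.0%, against 97.3% without scaling and 52.2% with DESeq2, and over all peaks it was 54.4%, 93.0% and 43.8%. A promoter peak, within 3 kb of a start, was enriched at 5 of the 10 genes in A375 (MITF, PAX3, PMEL, TRPM1 and MC1R) and at 2 in 1205Lu (PAX3 and PMEL), compared with 27.6% and 3.72% of all protein-coding genes. Any GENCODE start counted, on either side, and the 5 genes have 19, 14, 15, 8 and 4 annotated starts, in that order. The shares were not adjusted for the number of starts. The MC1R peak overlaps the 3′ end of that gene, and the PMEL peak enriched in both lines also contains RAB5B starts. The PAX3 peak lies 7.5 kb from its RefSeq start. The median number of enriched peaks within 50 kb in A375 was 1 for these genes and 2 for all protein-coding genes.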

How the data were processed

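Melanocyte lineage and pigment genes were studied in 12 RNA-seq and 8 Cut&Run samples of A375 and 1205Lu cells. For RNA-seq, the authors deposited expected counts per gene, whole numbers without normalization, made per the labels and methods with BBMerge, cutadapt 1.8.1, STAR 2.7.7a on GRCh38 and RSEM 1.3.0 with Gencode v30. For Cut&Run, the authors deposited raw read counts per consensus peak, made with Bowtie2 2.4.1, MACS2 2.1.1.20160309 and GenomicRanges; it is not given in the sources used here if samples were pooled before peak calling. The genes and related lists were chosen with earlier results of these data known.

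Samples were grouped by their labels. Genes were tested over all rows with edgeR 4.0.16 in R 4.3.3 (filterByExpr, TMM, quasi-likelihood test, Benjamini-Hochberg adjustment): si-FOSL1 over si-NT within each line (6 samples), A375 over 1205Lu with si-NT (6), and line by silencing over 12 samples. Fold changes are log2, and the SE is the absolute fold change divided by the root of F. FRA1 peak counts of the lines were compared with the same test, with 1205Lu samples 2 and 3 summed. Background shares cover protein-coding genes. Peak coordinates follow the peak names, and gene positions and lengths follow GENCODE v44. Scripts were tested on simulated data. IgG has 1 sample per line, so enrichment has no p-value. Depth allowed SEs of 0.016 for SOX10 and 0.395 for PMEL.

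Named genes were all 10 members, FOSL1, the 3 genes per list and line with the largest absolute fold change among those past adjusted p 0.05 with a mean of 100 counts, and the 5 genes most correlated with MITF and SOX10. Named peaks were promoter peaks and the tallest peak per gene; MITF and SOX10 sites and peaks beyond these were chosen after their values were seen. Alternatives were DESeq2 1.42.0, other normalizations, filters and thresholds, a replicate block, other windows and limits over IgG, and each sample left out.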

Additional observations from a re-analysis of the deposited data

Results flagged for a closer look

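The response to FRA1 silencing differed between the lines for 4 of the 7 genes tested, by the interaction of line and silencing over 12 samples (edgeR). The log2 change in A375 minus that in 1205Lu was -0.62 for PAX3 (adjusted p = 5.2e-06), -0.22 for SOX10 (3.2e-05), 0.41 for MITF (0.046) and -0.40 for MC1R (0.049). PAX3 and SOX10 passed under every alternative tried for them at an adjusted p of 0.05. MITF lost the call in 8 of the 12 fits that left out 1 sample (adjusted p 0.071 to 0.2), and MC1R in 10 of 12 (0.057 to 0.1). MC1R also lost it with DESeq2 (0.096) and with upper-quartile normalization (0.086), and shares exons with a readthrough gene. No group had over 3 samples, so single samples were not examined as extremes.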

How the results depend on the processing

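With an adjusted p under 0.01, 2 genes changed in A375 and 2 in the interaction, and with an absolute log2 fold change over 1 there were 1 in A375, 0 in 1205Lu and 0 in the interaction. Without a filter on low counts 2 genes passed the interaction, where MITF had adjusted p = 0.056 and MC1R 0.12 (0.096 with DESeq2 and 0.086 with upper-quartile normalization), and MC1R in A375 had 0.057. In A375, 8 times IgG left 14 enriched peaks, a window of 10 kb 18 and of 100 kb 44. In 1205Lu, 2 times IgG gave 4, 8 times IgG 0 and 100 kb 6. Peaks differing between the lines were 15 within 10 kb and 39 within 100 kb. Leaving out 1 sample gave 3 to 5 genes in A375, 2 to 2 in 1205Lu, 5 to 5 between the lines, 2 to 4 in the interaction, 28 to 32 and 2 to 3 enriched peaks, and 15 to 27 differing peaks, with 15 when 1205Lu FRA1 samples 2 and 3 were left out.

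Signs of gene fold changes turned only for values that did not pass. At peaks, 6 of the 10 called higher in 1205Lu turned in sign without scaling for depth. The interaction of DCT was -0.02, and 0.03 with upper-quartile normalization, 0.09 with a replicate block and 0.00 with DESeq2. MC1R in 1205Lu was -0.01 with a mean of at least 50 counts. Without 1 sample, DCT in 1205Lu ran from -0.90 to 0.02, PMEL from -0.16 to 0.36 and MC1R from -0.02 to 0.05, and the interaction of TYRP1 ran from -0.83 to 0.67 and of DCT from -0.32 to 0.61. The causes were not tested.

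Samples with the same replicate number showed no visible shared deviation (correlations of -0.049 to 0.037). Such values do not show whether the samples were paired, and the main tests treated them as unpaired. A replicate block left the interaction of MC1R at -0.40 with adjusted p = 0.071 and changed no other call of these genes in RNA-seq, and with it 25 peaks differed between the lines. Without a filter, the median log2 ratio of the lines shifted by 0.133, with no call changed. Depth limits TYR, DCT, TRPM1 and MLANA, with at most 16 reads in a sample, and the 1205Lu Cut&Run samples.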
